A study of Mus musculus with 2 samples.

Results

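The genes described here are 10 transcription regulators of neural progenitors and young neurons: Sox2, Sox4, Sox9, Sox11, Zic1, Zic2, Pax6, Hes5, Id2 and Id3. They were chosen by name, and each gene was read from whichever of its transcripts had most counts over both libraries, which gave 10 of the 45578 genes in the deposited table. The material was brain from neonatal control mice of the Taiwanese spinal muscular atrophy colony, genotype Smn+/-; SMN2tg/0 on an FVB background, killed at postnatal day 5. All mice in the study carried 1 such genotype, with a heterozygous mouse Smn gene and the human SMN2 transgene, and the design had 1 group with 2 biological replicates and no other condition. The labels call the samples biological replicates without naming the animals, so the spread between them may be partly technical.

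RiboLace is a pull-down of ribosomes with a bead-bound puromycin analogue, which favours ribosomes that are actively translating. Fragments protected by the captured ribosomes (footprints, size selected at 25 to 35 nucleotides) were sequenced, so a gene's count follows both how much of its messenger RNA was present and how heavily it was translated. In whole brain, fewer cells of a type and less RNA per cell cannot be told apart either. Replicate 1 held 343552 counts at the gene level and replicate 2 held 120282, and 1 count was worth 2.71 CPM (counts scaled to an equal library size) in replicate 1 and 8.93 CPM in replicate 2. Every marker fixed for neurons, radial glia and astrocytes, the oligodendrocyte lineage, the cerebellar granule lineage and proliferating cells had a count in at least 1 library. Atoh1, of the granule lineage, had 0 counts in replicate 1 and 1 in replicate 2. The 7 neuronal markers held 0.658% and 0.664% of the counts in replicates 1 and 2, and the 9 radial glial and astrocytic markers held 0.299% and 0.296%. The 5 granule lineage markers, which include Pax6 itself, held 0.0108% and 0.0116%, and the 4 proliferation markers 0.0221% and 0.0200%. Blood and choroid plexus transcripts were also present: 4 globin genes held 0.408% and 0.384% and the choroid plexus marker Ttr 0.115% and 0.127%. In replicate 1 Hba-a1 and Hba-a2 had 343 and 362 counts, and Hbb-bs and Hbb-bt 351 and 345. A fragment may have been counted for both genes of such a pair, which would raise the globin share and was not tested.

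Sox proteins bind DNA through a high-mobility-group (HMG) box. Group B1 members such as Sox2 maintain neural stem and progenitor cells, group C members such as Sox4 and Sox11 act as cells leave the cycle and become neurons, and the group E member Sox9 is needed for the glial lineage. Zic1 and Zic2 are zinc finger factors of the dorsal neural tube and of cerebellar granule cell precursors, and Pax6 is a paired-box factor of cortical radial glia and of the granule lineage. Hes5 is a repressor switched on by Notch signalling. Id proteins carry a helix-loop-helix without a DNA-binding region, hold E proteins in inactive pairs and are switched on by bone morphogenetic protein (BMP) signalling.

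Per length of coding sequence, footprints were densest on Id2 and Sox4, while Hes5 and Pax6 were close to the limit of detection on the transcript read. The genes together had 430 counts in replicate 1 and 158 in replicate 2. This was 0.125% of gene-level counts in the first library, with a 95% Wilson interval of 0.114 to 0.138. In the second library it was 0.131%, with an interval of 0.112 to 0.153 that overlapped the other widely. The mean was 0.128% ± 0.0044 (SD, n = 2). Intervals given here cover counting error only, because they were computed from the counts with no term for variation between animals or preparations. PCR copies of a molecule cannot be recognised without molecular identifiers, so the intervals may be too narrow even for counting error.

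Levels of different genes were compared as CPM per kilobase (kb) of coding sequence, the level on which the order below rests. In this order the genes ran Id2, Sox4, Id3, Sox11, Zic1, Sox2, Zic2, Sox9, Hes5 and Pax6, over a 57.9-fold range. The median over the 13653 protein-coding genes with a count was 15.0 CPM per kb. Of the 10 genes, 5 lay above the 90th percentile of these genes, and Pax6, on the transcript read, was the one below their median.

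**Figure D1:**
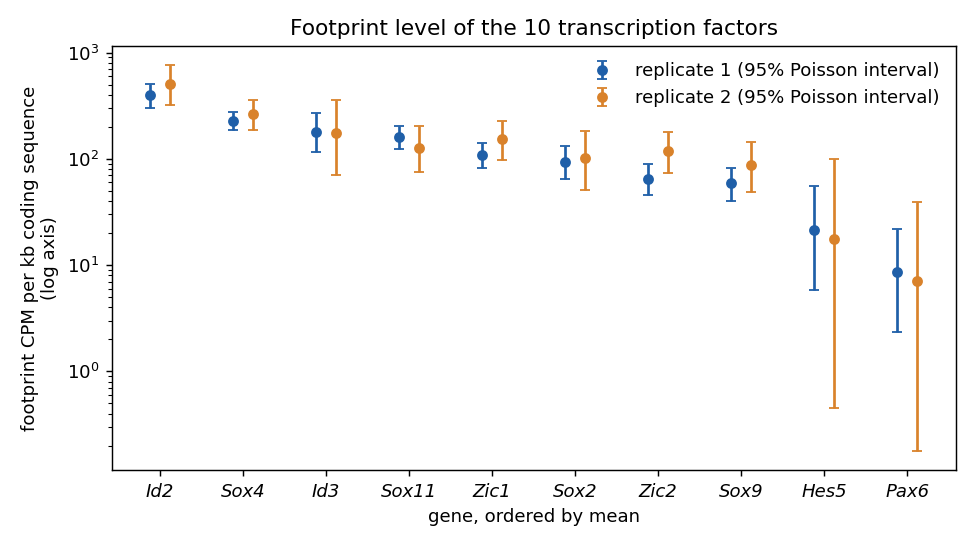
Footprint level of each of the 10 genes in CPM per kb of coding sequence (vertical log axis) in replicate 1 (blue) and replicate 2 (orange), with 95% exact Poisson intervals on the counts. Id2 lies highest in both libraries at 395 and 507, and the intervals of Hes5 and Pax6, which rest on 4 and 1 counts, are the widest.

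Among the Sox genes, Sox4 was the highest per kb of coding sequence and Sox11 the next, ahead of Sox2 and Sox9. Sox4 (ENSMUSG00000076431), a group C factor whose coding sequence is 1323 nucleotides long, had 111 counts in the first library and 39 in the second. Its level was 227 and 263 CPM per kb, or 245 ± 25.4 (SD, n = 2), at the 95.5th percentile of coding genes. Both libraries gave nearly the same level for this gene, which had the most counts of the 10.

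Sox11 (ENSMUSG00000063632), also of group C, codes over 1188 nucleotides of an 8311-nucleotide transcript, most of which is 3' untranslated region (6957 nucleotides). It had 70 and 17 counts, a level of 160 and 128 CPM per kb, or 144 ± 22.6 (SD, n = 2). It stood below Sox4 in both libraries.

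Sox2 (ENSMUSG00000074637), the pluripotency and stem cell factor of group B1, had 33 and 11 counts, which is 93.2 and 102 CPM per kb, or 97.7 ± 6.48 (SD, n = 2). Sox2 lies inside the long non-coding gene Sox2ot, and none of the 18 Sox2ot transcripts had more than 2 counts in replicate 1 or 1 in replicate 2. Sox9 (ENSMUSG00000000567), of group E, had 33 and 15 counts, or 58.7 and 87.9 CPM per kb, a mean of 73.3 ± 20.7 (SD, n = 2). Sox2 and Sox9 thus had equal counts in replicate 1, and Sox9 has the longer coding sequence, at 1524 against 960 nucleotides.

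Sox4 exceeded Sox2 and Sox9 with 95% exact Poisson intervals that did not overlap in either library, at 187 to 274 in replicate 1 against 64.1 to 131 for Sox2 and 40.4 to 82.4 for Sox9. In replicate 2 the interval of Sox4 was 187 to 360, that of Sox2 51.1 to 183 and that of Sox9 49.2 to 145. The intervals of Sox4 and Sox11 overlapped in both libraries, as did those of Sox11 and Sox2. Those of Sox11 and Sox9 were apart in replicate 1 and overlapped in replicate 2.

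Across the 19 Sox genes listed here, without Sry, group C (Sox4, Sox11 and Sox12) held 54.6% of the summed CPM per kb in replicate 1 and 52.7% in replicate 2. Group B1 (Sox1, Sox2 and Sox3) held 16.8% and 20.6%, and group E (Sox8, Sox9 and Sox10) 17.1% in both. The 4 genes described here made up 64.1% and 65.6% of the family. The order of group C above B1 and E was the same in both libraries. These shares rest on division by coding length. Per kb of whole transcript Sox4 stood at 67.7, Sox2 at 45.6, Sox9 at 27.0 and Sox11 at 20.5 CPM. The shares of the groups were not computed on that length, so the share of group C may depend on the divisor. Sox12, the third group C gene, had 25 and 8 counts and a level of 73.6 ± 2.76 CPM per kb (SD, n = 2), beside that of Sox9.

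Among the other relatives, Sox1 had 12 and 8 counts, or 44.2 ± 23.4 CPM per kb, and Sox3 had 10 and 3, or 19.9 ± 0.162 (each SD, n = 2). Sox8 had 22 and 6 counts and Sox10, the oligodendrocyte and neural crest member of group E, 22 and 4. Group F (Sox7, Sox17 and Sox18), known from endothelium, had 14 counts in replicate 1 and 0 in replicate 2, where a count of 0 allows a share of up to 0.00249%. Sox15 and Sox30 had 0 counts in both libraries, which allows up to 0.00087% in replicate 1. Sox paralogs resemble each other in the HMG box, and a fragment from a stretch that 2 genes share could have been counted for both; its extent was not tested, because no transcript sequences were used here.

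**Figure D2:**
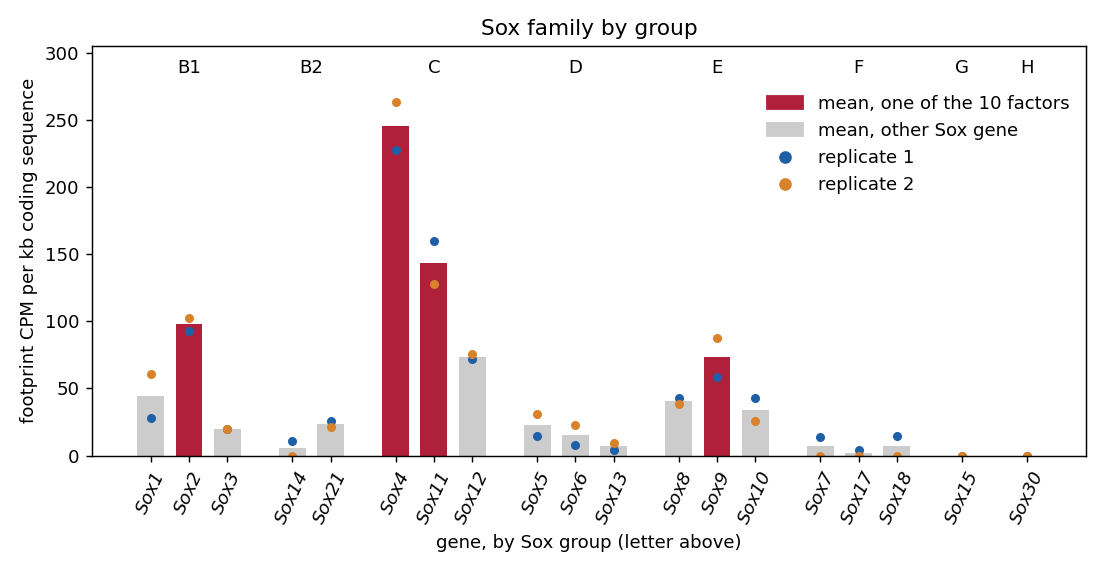
Mean footprint level (bars, CPM per kb of coding sequence) of 19 Sox genes arranged by Sox group, with the value of each library as points. Group C, with Sox4 at 245, Sox11 at 144 and Sox12 at 73.6, is the tallest group, and Sox15 and Sox30 are at 0.

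Zic1 and Zic2 were read at similar levels, and on the transcript read for each gene both lay far above their neighbours Zic4 and Zic5. Zic1 (ENSMUSG00000032368), which codes over 1344 nucleotides, had 54 and 23 counts, or 109 and 153 CPM per kb, a mean of 131 ± 31.1 (SD, n = 2). Zic2 (ENSMUSG00000061524), with 1590 coding nucleotides, had 38 and 21 counts, or 64.8 and 118 CPM per kb, a mean of 91.4 ± 37.6 (SD, n = 2). The 2 genes overlapped in range, since Zic2 in replicate 2 was above Zic1 in replicate 1. Both were higher in replicate 2, and Zic2 had the widest spread of the 10 genes relative to its mean.

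Zic4 and Zic5 lie beside Zic1 and Zic2 in head-to-head gene pairs. Zic4 had 6 and 1 counts (12.5 ± 5.16 CPM per kb, SD, n = 2) and Zic5 9 and 3 (13.7 ± 0.908 CPM per kb, SD, n = 2). Zic1 and Zic2 were above both of them in each library. Zic4 has 12 transcripts, none with more than 6 counts in replicate 1 or 2 in replicate 2. Its total over these transcripts is not known.

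Id2 was the highest of the 10 genes, and 3 of the 4 Id genes stood above the 90th percentile of coding genes. Id2 (ENSMUSG00000020644) codes over 405 nucleotides and had 59 and 23 counts, so that its level was 395 and 507 CPM per kb, or 451 ± 79.4 (SD, n = 2), at the 97.9th percentile. Id3 (ENSMUSG00000007872), with 360 coding nucleotides, had 24 and 7 counts, or 181 and 174 CPM per kb, a mean of 177 ± 4.97 (SD, n = 2). In replicate 1 the 95% Poisson interval of Id2, 301 to 509, lay above that of Id3, 116 to 269, and in replicate 2 they overlapped at 321 to 761 against 69.8 to 358.

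Id4, a regulator of radial glia and oligodendrocyte precursors, lay between them with 45 and 12 counts and 236 ± 21.5 CPM per kb (SD, n = 2). Id1 had 7 and 6 counts, or 42.4 and 120 CPM per kb. Id2 and Id3 held 66.2% and 66.7% of the summed CPM per kb of the Id family. The short coding sequences of these genes raise a level per kb from few counts: by CPM alone Sox4, at 301 and 348, was above Id2, at 160 and 205.

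Hes5 and Pax6 were barely detected on the transcript read for each. For Pax6, 20 of 26 transcripts had a count, and some held other counts than the one used. Pax6-022, for example, had 0 and 2. A fragment may have been counted for several transcripts, so the total for the gene is not known. Hes5 (ENSMUSG00000048001), with 504 coding nucleotides, had 4 counts and 1 count in the 2 libraries, or 19.6 ± 2.68 CPM per kb (SD, n = 2). Pax6 (ENSMUSG00000027168) had the same 4 and 1 counts over 1269 coding nucleotides, or 7.79 ± 1.06 CPM per kb (SD, n = 2). Their order is therefore set by the length of the coding sequence alone, and the small SD reflects 2 low counts, not precision: the Poisson interval of Pax6 was 2.33 to 21.9 in replicate 1 and 0.178 to 39.2 in replicate 2. Those of Hes5 were 5.86 to 55.1 and 0.449 to 98.7.

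Low counts ran through both families. Of the other 8 Hes and Hey genes 6 had a count, led per kb by the Notch targets Hey1, with 8 and 3 counts, and Hes1, with 3 and 2. Hes6, which had 13 and 4 counts on a retained-intron transcript, has no level per coding length here. Of the other 8 Pax genes 5 had a count. The highest of these per kb were Pax2, a factor of the midbrain-hindbrain region and of inhibitory interneurons, with 7 and 1 counts, and Pax5 with 1 and 1. With 1 transcript read per gene, no gene of either family reached the mean of 10 counts needed for a test.

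Neighbours in the order were compared by whether their ranges over the libraries overlapped, and no test between genes was run, since 2 replicates would leave it little power. Of the 9 neighbouring pairs, 3 overlapped: Sox11 with Zic1, Sox2 with Zic2, and Zic2 with Sox9. The other 6 pairs were apart in range, but counting error alone covered the step in at least 1 library for every neighbouring pair. Of all 45 pairs of the 10 genes, 18 had Poisson intervals that were apart in both libraries. Id2 was the higher gene in 7 of these 18, against every gene except Sox4 and Id3, and Sox4 in 5. The remaining 6 were the steps from Id3, Sox11, Zic1, Sox2, Zic2 and Sox9 down to Pax6. No pair among Id3, Sox11, Zic1, Sox2, Zic2 and Sox9 was apart in both libraries.

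The level depends on the length by which a count is divided. Untranslated regions took up a median of 65.6% of the transcripts of the 10 genes, against 46.8% for tested protein-coding genes. Divided by the whole transcript, Sox11 stood at 20.5 CPM per kb in place of 144 and moved from place 4 to place 8. It was then below Sox2, at 45.6, and Sox9, at 27.0. Zic2, whose untranslated regions are the shortest share of its transcript, at 34.8%, stood at 59.5 and moved from place 7 to place 3. Id2 and Sox4 stayed first and second, at 144 and 67.7, and Hes5 and Pax6 last, at 7.77 and 3.17.

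**Figure D3:**
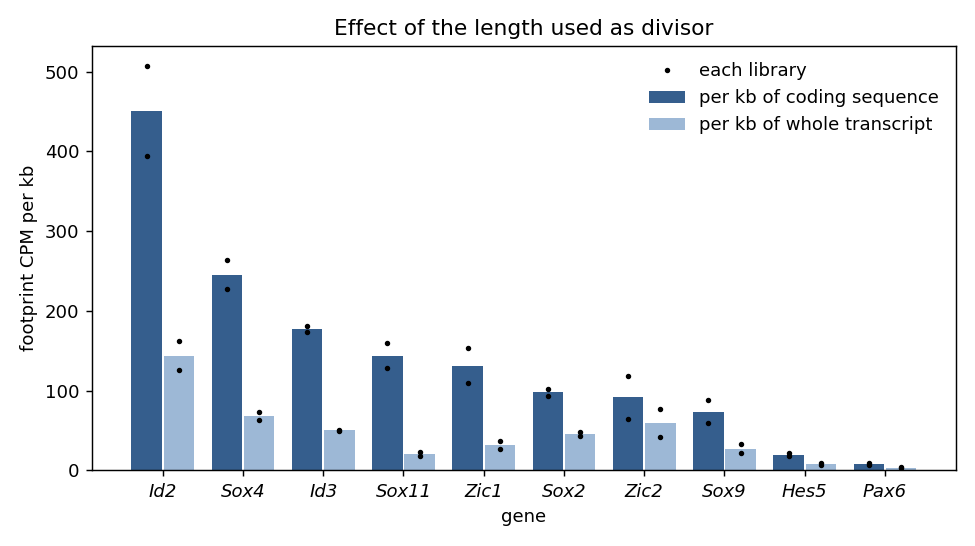
Mean footprint level of the 10 genes as CPM per kb of coding sequence (dark bars) and per kb of whole transcript (light bars), with each library as a black point. Sox11 falls from 144 to 20.5 and Zic2 from 91.4 to 59.5, while Id2 is highest by either length.

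Zic1 has a pair of coding isoforms that differ in untranslated sequence. Transcripts Zic1-001 and Zic1-002 have the same coding length, and the first has 2795 more nucleotides of untranslated region. It had 8 more counts in replicate 1 and 3 more in replicate 2. This was 2.86 counts per kb of added sequence (95% Poisson interval 1.24 to 5.64) in replicate 1, against 16.4 per kb (12.0 to 21.8) over the shorter transcript. In replicate 2 the values were 1.07 (0.221 to 3.14) and 7.11 (4.35 to 11.0). The intervals were apart in both libraries. This means fewer footprints per kb on the added untranslated sequence only if the shorter transcript is contained in the longer one. It also requires that every shared fragment was counted for both transcripts. Neither condition was checked. The other genes offer no such pair with enough counts.

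Transcripts classed as non-coding shared counts with the coding ones. The retained-intron transcript Id3-002, of 738 nucleotides, had 22 and 8 counts beside 24 and 7 on the coding transcript Id3-001, so in replicate 2 it had 1 count more. Zic1-003, a processed transcript of 395 nucleotides, had 13 and 4. The non-coding Hes5-003 had 2 and 2 counts against 4 and 1 on the coding transcript. How fragments that match several transcripts were counted is not stated in the sources used here, so these numbers do not show which isoform was translated. Of the 26 Pax6 transcripts, 20 had a count, none more than 5 in replicate 1 or 2 in replicate 2, and 4 tied for the highest sum. The longest of the 4, Pax6-012, was used. The 5 genes with a single transcript, Sox2, Sox4, Sox9, Sox11 and Id2, leave no choice of isoform.

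The libraries were compared gene by gene with a 2-sided exact binomial test on the counts, fitted over the 5436 genes that averaged 10 counts or more and adjusted over all of them by the Benjamini-Hochberg method. The test compares these 2 libraries and no condition. Of the 10 genes, 8 passed the count filter and 0 were called at an adjusted p under 0.05, where 4.14% of all tested genes and 0.956% of the tested protein-coding genes were called. Split by direction, 3.99% of all tested genes were called higher in replicate 2 and 0.147% lower. The edgeR exact test with a preset biological coefficient of variation of 0.2 called 0 of the 8 as well, against 2.41% of all genes. At an unadjusted p under 0.05 the exact binomial test had 1 of the 8, Zic2, beside 9.6% of all tested genes and 5.62% of coding genes.

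The difference in log2(CPM + 1), replicate 2 minus replicate 1 and called the log2 ratio here, was above 0 for 6 of the 8 genes and below 0 for Sox11 and Id3. Its median was 0.28, against 0.0041 over all tested genes. Scaling by library totals in place of the trimmed mean of M values (TMM) lowers every ratio by about 0.20, and the ratio of Sox2 then changes sign, from 0.13 to -0.07. The ratio of Id3 was -0.06 and became 0.17 with isoforms summed.

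Zic2 had the highest log2 ratio, 0.86 with a counting SE of 0.39. Its level in replicate 2 was 1.82 times that in replicate 1 (95% exact interval 1.02 to 3.18), with an exact binomial p of 0.0307 that became 0.394 after adjustment. Sox9 had a log2 ratio of 0.58 (SE 0.45), Zic1 of 0.49 (SE 0.36) and Id2 of 0.36 (SE 0.35). Sox11 was the lowest at -0.32 (SE 0.39), a ratio of 0.800 with an interval from 0.441 to 1.37. Sox4 gave the narrowest interval, 0.782 to 1.68 around 1.16.

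Depth limits what these ratios can show. With the counts of Sox4 a ratio had to reach 1.75 upwards or 0.478 downwards to be called, and with those of Sox2 2.75 or 0.157. For Id3 the limit was 3.51 upwards, and downwards a call would have needed 0 counts in replicate 2. A difference smaller than these was not detectable at this depth.

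**Figure D4:**
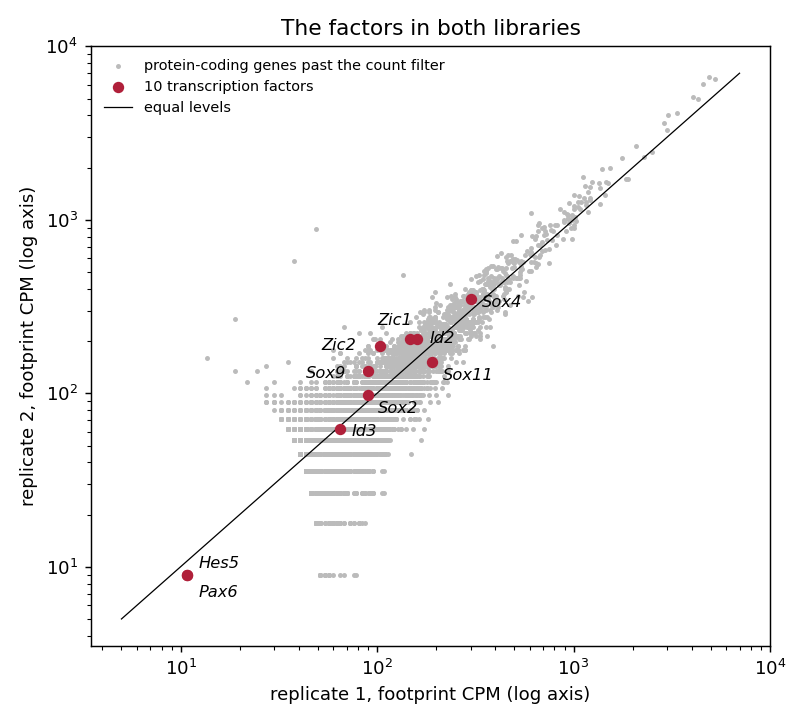
Footprint CPM in replicate 1 (horizontal log axis) against replicate 2 (vertical log axis) for protein-coding genes past the count filter with a count in both libraries (grey) and the 10 genes (red), with the line of equal levels. The 8 tested genes lie within the grey cloud, Zic2 the farthest above the line, and Hes5 and Pax6 coincide at 10.8 and 8.93 CPM.

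Genes of the pathways in which these factors act were taken from lists of 89 genes, all of them matched in the table. Of these, 79 had a count and 22 passed the count filter, and the exact binomial test called 0 of the 22 higher and 0 lower, where 4.14% of all tested genes and 0.956% of coding genes were called, so that a count of 0 among 22 is near the background. Their median log2 ratio was -0.17. In the BMP list, which holds the ligands, receptors and Smad proteins upstream of Id genes, all 11 genes had a count and 2 were tested, the receptor Bmpr2 (51 and 23 counts, 55.1 ± 15.2 CPM per kb) and the signal transducer Smad1 (18 and 4 counts, 30.2 ± 6.61 CPM per kb, each SD, n = 2).

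The partners that Id proteins hold in check, the E proteins, were read at lower levels per kb of coding sequence than Id2 and Id3. This holds for the 1 transcript read per gene, and totals over the isoforms of the E protein genes were not compared. Tcf4 had 17 and 11 counts, or 35.8 ± 18.3 CPM per kb, while Tcf3 had 4 and 2 and Tcf12 7 and 2. Within the same list of 12 E proteins and proneural factors, 6 were tested and the highest were the oligodendrocyte lineage factors Olig1, at 187 ± 9.83 CPM per kb, and Olig2, at 96.0 ± 33.2 (each SD, n = 2). The proneural genes Neurog2 and Atoh1 had no count above 1 in either library.

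All 16 Notch pathway genes had a count, and 4 were tested. Notch1, a receptor upstream of Hes5, had 24 and 9 counts, or 9.57 ± 1.43 CPM per kb over a coding sequence of 7596 nucleotides (SD, n = 2). Rbpj, the DNA-binding partner of activated Notch, had 12 and 0. Per kb the list was led by Numb, from 2 and 2 counts on a nonsense-mediated decay transcript with 231 coding nucleotides, and by Lfng, a modifier of Notch, with 12 and 4 counts.

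The POU factors that bind DNA together with Sox proteins were tested in 3 of 4 cases, with Pou3f3 at 68.9 ± 12.9 and Pou3f1 at 55.6 ± 3.75 CPM per kb (each SD, n = 2). All 3 tested POU genes had log2 ratios below 0, from -0.79 to -0.14, none of them called. Among the other progenitor and cortical factors, Tbr1, a factor of deep-layer cortical neurons, had 47 and 11 counts and Meis2 23 and 4. Eomes, the marker of intermediate cortical progenitors, and the hedgehog effector Gli1 had 0 counts in both libraries.

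With 1 group, no pattern over conditions can be ranked, so likeness was taken as the absolute difference in log2 mean level per kb among 50 listed factors with a count and a coding length. Nearest to Sox4 was Id4 (0.06), to Id3 Olig1 (0.08), to Sox2 Olig2 (0.03) and to Sox9 Sox12 (0.01). For Zic2 both Olig2 and Neurod6 were at 0.07. These distances took no account of counting error, and the counting SE of the log2 ratio was 0.27 even for Sox4. Which gene is nearest is therefore not resolved at such small distances. The nearest to Id2, Id4, was 0.94 away.

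In the RefSeq annotation of GRCm38.p6 the genes lie on 8 chromosomes, with Id3 and Hes5 on chromosome 4 and Id2 and Sox11 on chromosome 12. The submitters' processing notes name GRCm38.p4, a patch release of the same chromosome sequences. Sox4 spans chr13:28948919-28953699, Sox11 chr12:27334268-27342718, Sox2 chr3:34649995-34652461 and Sox9 chr11:112782210-112787757. Id2 spans chr12:25093799-25096092 and Id3 chr4:136143822-136145392. Zic1 spans chr9:91358058-91365768, Zic2 chr14:122475384-122480328, Pax6 chr2:105668896-105698410 and Hes5 chr4:154960626-154962372. All 10 identifiers carried the same symbol in the table and in the gene name list.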

How the data were processed

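The authors deposited 1 table of whole-number footprint counts per transcript, not normalised, with a column for each of the 2 replicates and the lengths of each transcript, its coding sequence and untranslated regions. Trimmomatic 0.36, Bowtie2 2.2.6, SAMtools and the build GRCm38.p4 are named in the submitters' processing notes; the counting tool and annotation release are not given in the sources used here. Columns were matched to samples by the words for control and RiboLace and by replicate number; the term "early" in both column names has no counterpart in the sample labels. In a tie for the highest count the longer transcript was used. Isoforms of a gene often carry similar counts, so a fragment may have been counted for every transcript it matches, which was not tested.

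CPM values used TMM effective library sizes from edgeR 4.0.16 over the genes averaging 10 counts or more, with factors of 1.07 and 0.931. The exact binomial test (SciPy 1.17.1) was tested on simulated data. Ratios used a pseudocount of 1. Alternatives were library totals, DESeq2 1.42.0 size factors, coding genes alone, isoforms summed, the longest coding sequence, a pseudocount of 0.1, no filter or a mean of 50 counts, and a preset coefficient of variation of 0.2.

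The genes and lists were chosen with earlier results of these data known. Apart from the 10 genes, a gene was to be named if it was among the 2 highest per kb of its list, was called, or was the closest relative of one of the 10; others named are defining genes of their pathway or the count of 0, chosen after their values were seen.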

Additional observations from a re-analysis of the deposited data

How the results depend on the processing

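The count of 0 genes called among the 10 was the same under all 8 alternatives run for it, though a mean of 50 counts left 1 of them, Sox4, to test. The highest and lowest median log2 ratio over its 6 alternatives were 0.35 with isoforms summed and 0.08 with library totals, both above 0. The ratio of Sox2 reversed to -0.070 with library totals and that of Id3 to 0.17 with isoforms summed. The share of counts of 0.128% became 0.0836% with isoforms summed (the cause was not tested) and 0.167% with protein-coding genes alone in the total; with either replicate left out it was 0.125% to 0.131%. The 22 listed genes past the filter became 57 with at least 1 count in each library and 0 with a mean of at least 50 counts, by construction. Of the 9 neighbouring steps in the order, 6 kept their direction per whole transcript length, and between 7 and 9 when one replicate was left out. The level of Pax6 became 5.29 CPM per kb on Pax6-201, the longest of the tied transcripts among the 4 with its longest coding sequence; Pax6-001, of equal coding length and sum, had 3 and 2 counts in place of 5 and 0. No paired analysis was possible because the design has a single group, with no second one to pair.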

Other observations

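The start sites of 8 of the 10 genes were matched in the RefSeq promoter windows of GRCm38.p6 (Sox2, Sox4, Sox11, Zic1, Pax6, Hes5, Id2 and Id3), as 9 windows of 300 bases, of which Pax6 has 2. Their GC content had a median of 60.0%, against 56.3% for 21263 windows of protein-coding genes. The ratio of observed to expected CpG had a median of 0.817, against 0.567. GC content ranged from 46.3% in 1 of the Pax6 windows to 72.7% in that of Hes5. These values describe the reference sequence alone.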
